A study of Mus musculus with 12 samples.

Results

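The levels of 8 macrophage transcription factor genes were followed in mouse prostate tumours: Spi1, Cebpa, Cebpb, Irf8, Irf5, Maf, Tfec and Mitf. They were chosen by gene symbol, with earlier results of these data known. All 8 were found among the 23479 symbols of the count table, Spi1 under its older symbol Sfpi1, which is used here. RNA was sequenced in bulk from 12 orthotopic prostate tumours, 3 in each of 4 groups. Each C57BL/6J mouse had 100000 cells of the prostate cancer line PTE-82 injected, and the labels describe the tumours as expressing TMPRSS2-ERG. The anti-CSF1 group was given an antibody against CSF1 on days 9 and 14 after injection. The Lupron plus anti-CSF1 group was given the same antibody after 0.6 mg of Lupron per mouse on day 4, and the Lupron group had that dose of Lupron alone. The IgG group was the control. Tumours were taken on day 17 after perfusion, so the RNA comes from tumour cells together with whatever host cells remained in the tissue. The sources used here do not say if mice given Lupron also had control IgG, and name no batch.

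CSF1 binds the receptor CSF1R on monocytes and macrophages and keeps these cells alive, and Lupron (leuprolide) lowers testosterone through the pituitary. PU.1, the product of Spi1, opens enhancers of myeloid genes, among them that of Csf1r, and works with C/EBP factors in setting the myeloid fate and with IRF8 in setting the macrophage fate. IRF5 drives inflammatory cytokine genes, c-MAF acts in mature macrophages, and MITF and TFEC are related bHLH-zipper factors of macrophages, osteoclasts and, for MITF, also melanocytes and mast cells. Cebpa and Cebpb are active in many tissues beside the myeloid line, fat and epithelium among them.

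Library totals ran from 20584363 to 29965355 counts, and RNA integrity numbers from 8.2 to 9.8. IgG replicate 3 stood apart: its summed level of 6 smooth muscle markers was 10700 CPM (read counts scaled by library size), against 349 to 2430 CPM in the other libraries, and its summed level of 10 macrophage markers was 414 CPM, against 883 and 1300 CPM in the other IgG tumours. Csf1r, the gene of the CSF1 receptor, had 27.1, 10.9 and 25.3 CPM in anti-CSF1 tumours, 24.0, 15.1 and 19.8 CPM in Lupron plus anti-CSF1 tumours, 139, 80.5 and 106 CPM in Lupron tumours, and 113, 148 and 51.9 CPM in IgG tumours. Every tumour given the antibody lay below every tumour not given it, with a log2 fold change of -2.38 ± 0.31 (SE) and an adjusted p of 0.00798. Csf1 itself, whose protein the antibody blocks, had a log2 fold change of -0.23 ± 0.33 and did not pass (adjusted p = 0.702).

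The genes lie on 4 chromosomes (GRCm38, GENCODE M21): Spi1 at chr2:91082390-91115756 on the plus strand, Cebpb at chr2:167688915-167690418 (plus), Tfec at chr6:16833373-16898441 (minus), Irf5 at chr6:29526625-29541871 (plus), Mitf at chr6:97807052-98021349 (plus), Cebpa at chr7:35119293-35121928 (plus), Maf at chr8:115682942-115707794 (minus) and Irf8 at chr8:120736358-120756694 (plus). Cebpa and Cebpb have a single exon, and the others are spliced. Exons of Irf5 overlap those of Tnpo3 on the opposite strand over 411 bases, 14.1% of Irf5's exon length, and exons of Cebpb overlap those of Tmem189 over 312 bases, 20.7% of its length. Csf1r, against which levels are set later, overlaps Hmgxb3 on the opposite strand over 873 bases, 15.1% of its exon length. No source used here gives the strand setting of the counting, and if strand was ignored the reads of such a pair cannot be told apart. Tnpo3 and Tmem189 had log2 fold changes of 0.14 ± 0.16 (adjusted p = 0.647) and 0.23 ± 0.16 (adjusted p = 0.436) with the antibody.

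RefSeq windows of 250 bases before an annotated start (GRCm38.p6) were at hand for 6 of the 8 genes, 9 windows in all. Windows of genes that fell with the antibody (Tfec, Irf5 and the first of 2 for Irf8) are given with that of Cebpb, whose level stayed within its spread. They are written 5′ to 3′ on the gene's strand, and capitals mark GGAAGT, a core that ETS factors such as PU.1 bind.
Tfec (chr6:16898442-16898691, minus): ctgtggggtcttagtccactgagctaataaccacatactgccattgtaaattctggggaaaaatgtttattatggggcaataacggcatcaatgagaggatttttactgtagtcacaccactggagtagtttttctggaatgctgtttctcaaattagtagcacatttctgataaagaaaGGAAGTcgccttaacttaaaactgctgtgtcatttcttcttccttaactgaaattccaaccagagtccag
Irf5 (chr6:29526375-29526624, plus): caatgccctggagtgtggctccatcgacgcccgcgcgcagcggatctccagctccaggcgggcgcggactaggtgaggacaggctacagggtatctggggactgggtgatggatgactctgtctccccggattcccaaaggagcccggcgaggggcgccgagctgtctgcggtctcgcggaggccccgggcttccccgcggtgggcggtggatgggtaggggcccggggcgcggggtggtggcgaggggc
Irf8 (chr8:120736108-120736357, plus): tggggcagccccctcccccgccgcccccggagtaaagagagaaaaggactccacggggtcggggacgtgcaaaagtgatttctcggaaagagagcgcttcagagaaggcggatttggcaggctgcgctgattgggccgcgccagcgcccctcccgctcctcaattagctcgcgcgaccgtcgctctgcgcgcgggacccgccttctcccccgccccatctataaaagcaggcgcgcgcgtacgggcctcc
Cebpb (chr2:167688665-167688914, plus): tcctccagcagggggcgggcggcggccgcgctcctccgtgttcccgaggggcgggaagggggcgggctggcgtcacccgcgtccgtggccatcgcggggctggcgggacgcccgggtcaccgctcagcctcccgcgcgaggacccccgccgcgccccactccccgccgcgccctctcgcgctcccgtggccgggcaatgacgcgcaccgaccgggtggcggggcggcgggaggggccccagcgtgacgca
The Tfec window held 39.2% G and C, against 72.0% for Irf5, 67.2% for the first and 54.0% for the second Irf8 window, and 81.6% for Cebpb, and the median over 32526 distinct windows of the mouse genome was 52.4%. Both strands were searched for GAGGAA (PU.1), GGAAGT (ETS core), TTNNGCAA (C/EBP), TGCTGA (MAF), an IRF element, CATGTG and CACGTG (MITF and TFEC). GGAAGT was added to these after the windows had been seen. The Tfec window held 1 match, GGAAGT at 70 bases before the start, and 19.8% of all windows hold that motif on either strand. The Irf5, Irf8 and Cebpb windows shown, and that of Cebpa, held none of the 7 motifs. TGCTGA, found in 16.1% of all windows, occurred in the second Irf8 window and in the first and second of 3 Mitf windows, and the first Mitf window also held TTGCGGAA, a C/EBP match found in 9.57% of windows. These are matches of letters in short windows and show no binding.

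With anti-CSF1, averaged over tumours with and without Lupron (6 tumours against 6), 5 of the 8 genes fell and none rose: Sfpi1, Irf5, Tfec, Maf and Irf8. The sizes ran from 3.89-fold for Sfpi1 to 1.63-fold for Irf8. Cebpa had a log2 fold change of -1.63 ± 0.37 and missed the threshold (adjusted p = 0.0545), and Mitf and Cebpb stayed within the spread. All 8 had enough counts to be tested, with edgeR's quasi-likelihood test and Benjamini-Hochberg adjustment over 15082 genes. Of all these genes 1.87% were called in either direction and 1.79% were called lower, and the share of the 8 called lower was above both. In 4 of the 8 (Irf5, Tfec, Maf and Cebpa) every tumour given the antibody lay below every tumour not given it, which held for 1.69% of all genes. At an unadjusted p under 0.05 there were 6 of the 8, against 19% of all genes. The median log2 fold change of the 8 was -1.17, against 0.02 over all genes. Since the 8 were chosen with earlier results of these data known, these shares are a description and no test of the set.

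The count of 5 rested on single libraries. Without anti-CSF1 replicate 2 or 3, or Lupron plus anti-CSF1 replicate 2 or 3, none of the 8 was called, while the calls over all genes fell to between 65 and 90. Without anti-CSF1 replicate 1, Lupron plus anti-CSF1 replicate 1, any Lupron replicate or IgG replicate 2, only Sfpi1 and Irf5 were called. Without IgG replicate 1 or IgG replicate 3, 6 were called, Cebpa being the addition, and the calls over all genes came to 1577 and 476. The estimates of the 5 genes stayed below 0 in each of these 12 fits. DESeq2's Wald test called 6 of the 8 (Cebpa again) against 9.45% of all genes. In bulk tissue, fewer macrophages and less of these RNAs per macrophage cannot be told apart.

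The levels of macrophage marker genes moved with these results. Of 10 macrophage markers 8 fell with the antibody, none of the 10 was at 0 in all libraries, and their summed level ran from 155 to 303 CPM in anti-CSF1, 175 to 244 CPM in Lupron plus anti-CSF1, 950 to 1230 CPM in Lupron and 414 to 1300 CPM in IgG tumours. The median log2 fold change over the 10 was -2.35. The part of macrophage number in the result was not tested. Among the markers, Mertk, a receptor for dying cells, had a log2 fold change of -0.09 ± 0.16 (adjusted p = 0.777). Mertk was chosen after its values were seen. Of the other marker lists, 1 of 6 monocyte markers (F13a1), 1 of 7 tested T cell markers (Cd4), and none of 6 neutrophil, 7 luminal epithelium and 6 smooth muscle markers fell in edgeR, while DESeq2 called 2, 1, 0, 4 and 5, and 2, 3, 0, 6 and 5 had an unadjusted p under 0.05.

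**Figure D1:**
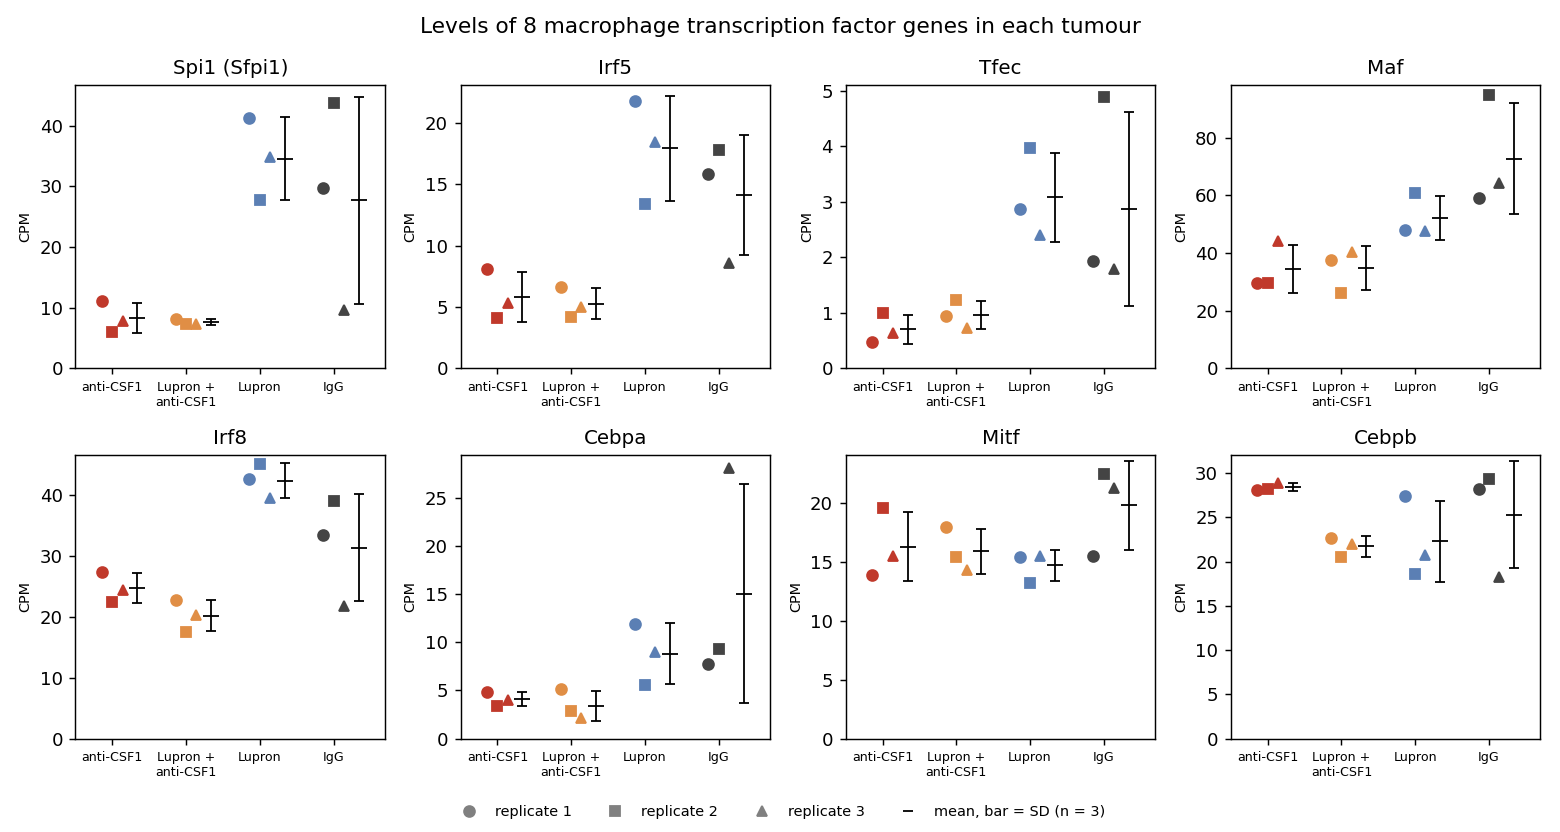
Level of each gene in each of the 12 tumours, in CPM on TMM-scaled library sizes (y axes starting at 0), by treatment group, with points for tumours and bars for the group mean and SD (n = 3). Sfpi1, Irf5 and Tfec are low in all 6 tumours given anti-CSF1. Tumours with and without it overlap for Mitf and Cebpb and, through IgG replicate 3, for Sfpi1 and Irf8.

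Sfpi1, which encodes PU.1, had 11.1, 6.07 and 7.82 CPM in anti-CSF1 tumours, 8.14, 7.25 and 7.4 CPM in Lupron plus anti-CSF1 tumours, 41.3, 27.7 and 34.8 CPM in Lupron tumours, and 29.8, 43.7 and 9.65 CPM in IgG tumours. All but 1 of the tumours not given the antibody lay at 27.7 CPM or above. The exception, IgG replicate 3 at 9.65 CPM, lay below the highest anti-CSF1 tumour, so the ranges overlapped, and 5 of the 6 treated tumours lay below every tumour without the antibody. Sfpi1 fell 3.89-fold (log2 fold change -1.96 ± 0.32, adjusted p = 0.013). Leaving out IgG replicate 3 gave -2.16 with an adjusted p of 8.96e-05. The call was lost without anti-CSF1 replicate 2 or 3 or Lupron plus anti-CSF1 replicate 2 or 3, with adjusted p-values of 0.0508 to 0.0572.

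Cebpa encodes C/EBP alpha, which is needed for the step to myeloid progenitors and is also a factor of fat cells. It had 4.83, 3.41 and 4.05 CPM in anti-CSF1 tumours, 5.16, 2.83 and 2.17 CPM in Lupron plus anti-CSF1 tumours, 11.9, 5.56 and 9.0 CPM in Lupron tumours, and 7.76, 9.31 and 28.2 CPM in IgG tumours. No tumour given the antibody reached the lowest of the others, 5.56 CPM in Lupron replicate 2. IgG replicate 3 at 28.2 CPM was the highest of the 12 libraries, next to 11.9 CPM in Lupron replicate 1, and it widened the spread of the IgG group (15.1 ± 11.4 CPM, SD, n = 3). Without IgG replicate 3 the log2 fold change was -1.22 and passed (adjusted p = 0.0384), and without IgG replicate 1 it was -1.79 (adjusted p = 0.0185). The summed level of 6 fat cell markers was 1370 CPM in IgG replicate 3, 195 CPM in IgG replicate 2 and 116 CPM in Lupron plus anti-CSF1 replicate 1, and it was 0.0 to 0.19 CPM in anti-CSF1, 0.587 to 116 CPM in Lupron plus anti-CSF1, 0.287 to 18.1 CPM in Lupron and 13.2 to 1370 CPM in IgG tumours. None of the 6 fat markers passed in edgeR (5 at an unadjusted p under 0.05, 2 by DESeq2), and none was at 0 in all libraries. Luminal epithelium markers were also highest in IgG replicate 3, where 7 of them summed to 2120 CPM, and the sum was 169 to 345 CPM in anti-CSF1, 192 to 295 CPM in Lupron plus anti-CSF1, 138 to 461 CPM in Lupron and 329 to 2120 CPM in IgG tumours. All 7 had estimates below 0 with the antibody, with none called in edgeR, and none was at 0 in all libraries. The part of either cell type in the level of Cebpa was not tested.

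Cebpb encodes C/EBP beta, a factor of inflammatory gene expression and of monocyte survival. It had 28.1, 28.2 and 28.9 CPM in anti-CSF1 tumours, 22.7, 20.5 and 22.0 CPM in Lupron plus anti-CSF1 tumours, 27.4, 18.6 and 20.7 CPM in Lupron tumours, and 28.2, 29.3 and 18.3 CPM in IgG tumours. The whole range over 12 tumours was 1.6-fold. The 3 anti-CSF1 tumours lay above the 3 Lupron plus anti-CSF1 tumours, and the tumours with and without the antibody overlapped. The share of all genes that separate between those 2 groups was not counted. Lupron averaged over the antibody gave -0.28 ± 0.15 for Cebpb and did not pass (edgeR, adjusted p = 0.526). The log2 fold change with the antibody was 0.07 ± 0.15 (adjusted p = 0.82, 95% interval -0.27 to 0.40), so a fall of the size seen for Sfpi1, Irf5 or Tfec lies outside the interval. Without IgG replicate 3 the estimate was -0.03.

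Irf5 encodes a factor that turns on inflammatory cytokine genes downstream of Toll-like receptors. Its levels were 8.06, 4.12 and 5.3 CPM in anti-CSF1 tumours, 6.65, 4.16 and 5.03 CPM in Lupron plus anti-CSF1 tumours, 21.8, 13.4 and 18.4 CPM in Lupron tumours, and 15.8, 17.8 and 8.58 CPM in IgG tumours. The 6 tumours given the antibody were all below the other 6, though IgG replicate 3 at 8.58 CPM came close to the highest of them. Irf5 fell 2.86-fold (log2 fold change -1.51 ± 0.26, adjusted p = 0.0152). The call was lost in the same 4 fits as that of Sfpi1, with adjusted p-values of 0.058 to 0.0619.

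Irf8, the partner of PU.1 in monocytes, dendritic cells and B cells, fell least. It had 27.4, 22.5 and 24.4 CPM in anti-CSF1 tumours, 22.7, 17.5 and 20.3 CPM in Lupron plus anti-CSF1 tumours, 42.7, 45.1 and 39.5 CPM in Lupron tumours, and 33.4, 39.1 and 21.8 CPM in IgG tumours. IgG replicate 3 again lay low, among the tumours given the antibody, and 2 of those 6 tumours were below it. The Lupron tumours were the highest of the 4 groups, just above the IgG range. The log2 fold change was -0.71 ± 0.16 (1.63-fold lower, adjusted p = 0.0454). It passed in only 2 of the 12 fits that leave out a library, those without IgG replicate 1 (-0.68, adjusted p = 0.0329) and without IgG replicate 3 (-0.81, adjusted p = 0.0027), and not without the filter on low counts (adjusted p = 0.0619).

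Other cells that use IRF8 were measured by their markers. None of 10 dendritic cell markers passed in edgeR (2 at an unadjusted p under 0.05, 1 by DESeq2, Cd209a), and their summed level, mostly from Bst2 and Fscn1, which other cells also make, was 550 to 848 CPM in anti-CSF1, 661 to 866 CPM in Lupron plus anti-CSF1, 473 to 730 CPM in Lupron and 104 to 579 CPM in IgG tumours. Of 6 tested B cell markers, 1, Cd22, fell in edgeR, 3 had an unadjusted p under 0.05, and DESeq2 called 3 lower. All 6 estimates were below 0, with a median log2 fold change of -1.26. The list summed to 2.92 to 12.5 CPM in anti-CSF1, 5.92 to 13.3 CPM in Lupron plus anti-CSF1, 12.9 to 46.6 CPM in Lupron and 13.1 to 47.0 CPM in IgG tumours. No marker of either list was at 0 in all libraries, and their part in the level of Irf8 was not tested.

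Maf, the gene of c-MAF, is also used by T cells and lens cells. It had 29.7, 29.7 and 44.2 CPM in anti-CSF1 tumours, 37.6, 26.0 and 40.4 CPM in Lupron plus anti-CSF1 tumours, 48.0, 61.0 and 47.7 CPM in Lupron tumours, and 59.2, 94.9 and 64.2 CPM in IgG tumours. The 2 sets of 6 tumours did not overlap, but the gap between them was narrow, 44.2 CPM in anti-CSF1 replicate 3 against 47.7 CPM in Lupron replicate 3. Maf fell 1.78-fold (log2 fold change -0.83 ± 0.18, adjusted p = 0.0452). Here too the call held in 2 of 12 fits, without IgG replicate 1 (-0.89, adjusted p = 0.0203) and without IgG replicate 3 (-0.87, adjusted p = 0.0238), and it was missed without the filter on low counts (adjusted p = 0.0521). The summed level of 7 tested T cell markers was 16.0 to 39.3 CPM in anti-CSF1, 14.1 to 34.8 CPM in Lupron plus anti-CSF1, 56.1 to 72.6 CPM in Lupron and 11.6 to 46.2 CPM in IgG tumours, and its part in the level of Maf was not tested.

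Tfec, the member of the MITF family that is found mainly in myeloid cells, was the scarcest, with 14 to 117 counts per library. It had 0.476, 0.995 and 0.64 CPM in anti-CSF1 tumours, 0.939, 1.23 and 0.723 CPM in Lupron plus anti-CSF1 tumours, 2.87, 3.96 and 2.4 CPM in Lupron tumours, and 1.94, 4.88 and 1.78 CPM in IgG tumours. The tumours given the antibody ended at 1.23 CPM and the others began at 1.78 CPM. Tfec fell 3.6-fold (log2 fold change -1.85 ± 0.39, adjusted p = 0.04). The call held without IgG replicate 1 (-1.95, adjusted p = 0.0204) or IgG replicate 3 (-1.98, adjusted p = 0.0146) and was lost in the 10 other such fits, and without the filter on low counts the adjusted p was 0.0522.

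Mitf showed no such pattern, with 13.9, 19.6 and 15.5 CPM in anti-CSF1 tumours, 18.0, 15.4 and 14.3 CPM in Lupron plus anti-CSF1 tumours, 15.4, 13.2 and 15.5 CPM in Lupron tumours, and 15.5, 22.5 and 21.3 CPM in IgG tumours. All groups overlapped with the next in order of mean. The log2 fold change with the antibody was -0.08 ± 0.15 (adjusted p = 0.779, 95% interval -0.42 to 0.26). Of 7 tested mast cell markers none passed, by edgeR, at an unadjusted p under 0.05 or by DESeq2, and the list summed to 13.0 to 22.9 CPM in anti-CSF1, 8.32 to 18.3 CPM in Lupron plus anti-CSF1, 10.2 to 16.3 CPM in Lupron and 11.5 to 27 CPM in IgG tumours. Of 5 melanocyte markers, Mlana, Tyr and Tyrp1 had 0 counts in every library and the list never summed to more than 1.89 CPM, so the defining markers of that other MITF cell type were at or near 0.

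**Figure D2:**
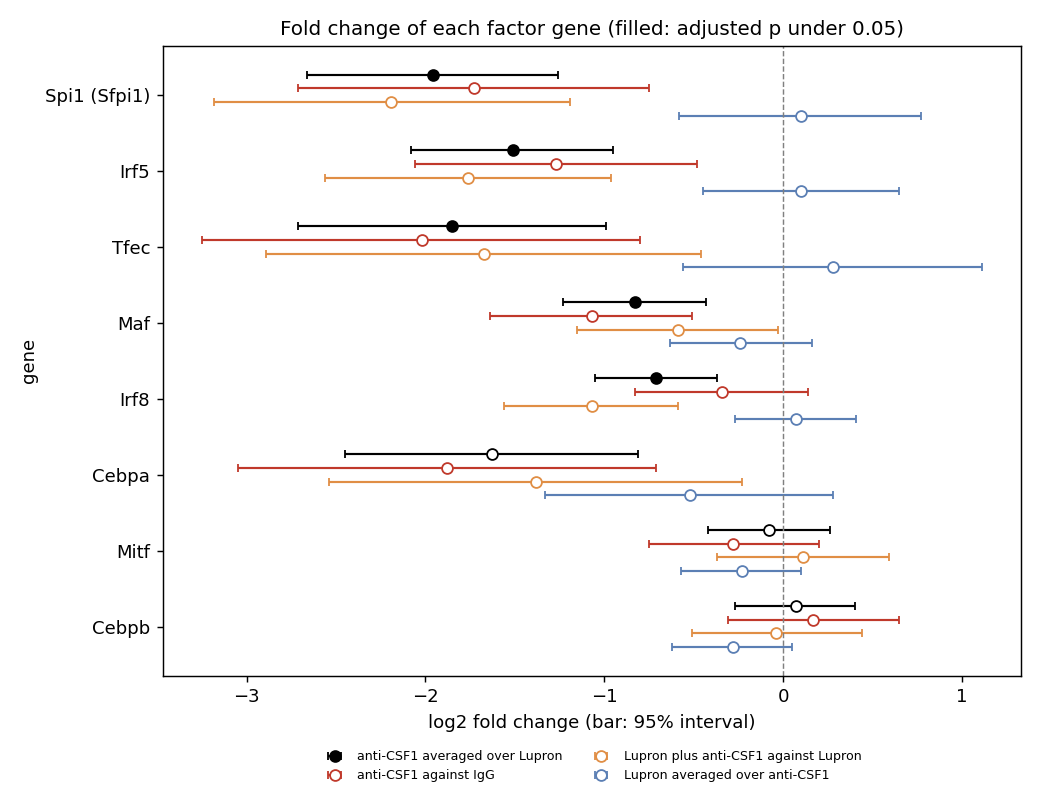
Log2 fold change of each gene with its 95% interval, for anti-CSF1 averaged over Lupron, anti-CSF1 against IgG, Lupron plus anti-CSF1 against Lupron, and Lupron averaged over anti-CSF1; filled points passed an adjusted p of 0.05. The antibody estimates of Sfpi1, Irf5, Tfec and Cebpa lie far below 0, those of Mitf and Cebpb near 0.

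Given alone, anti-CSF1 against IgG called none of the 8 (edgeR, 3 tumours against 3), against 0.00663% of all genes, that is 1 gene. At an unadjusted p under 0.05 there were 5 of the 8 against 22.8% of all genes, and DESeq2 called 5 (Sfpi1, Cebpa, Irf5, Maf and Tfec) against 12.2%. Groups did not overlap for 4 of the 8, with the antibody lower, against 12.8% of all genes. The estimates were -2.02 ± 0.56 for Tfec (adjusted p = 0.0938), -1.88 ± 0.53 for Cebpa (0.0963), -1.73 ± 0.45 for Sfpi1 (0.0905), -1.27 ± 0.36 for Irf5 (0.0963) and -1.07 ± 0.26 for Maf (0.0903). Irf8 stood at -0.34 ± 0.22 (adjusted p = 0.349). Leaving out an IgG library changed the calls. Without IgG replicate 1 there were 4 of the 8 (Cebpa, Maf, Sfpi1 and Tfec), while the calls over all genes rose to 2611. Without IgG replicate 3 there were 2 (Sfpi1 and Irf5), and the share of all genes called in that fit is not given here.

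Added to Lupron, the antibody again gave no call in edgeR, where 0% of all genes were called, but 6 of the 8 had an unadjusted p under 0.05, against 4.26% of all genes. In the same 6 genes each Lupron plus anti-CSF1 tumour lay below each Lupron tumour, against 6.93% of all genes. The estimates were -2.19 ± 0.45 for Sfpi1, -1.76 ± 0.36 for Irf5 and -1.07 ± 0.22 for Irf8 (adjusted p = 0.117 each), -1.67 ± 0.55 for Tfec (0.538), -1.38 ± 0.53 for Cebpa (0.815) and -0.59 ± 0.26 for Maf (adjusted p of 1). DESeq2 called Sfpi1, Irf5 and Irf8 against 1.56% of all genes. A fit to the Lupron plus anti-CSF1 and Lupron tumours alone called 3 of the 8 and 204 of all genes. The fit without IgG replicate 3 called Sfpi1, Irf5 and Irf8, and 210 of all genes.

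Lupron itself, averaged over the antibody, moved none of the 8 past the threshold, and no gene of the whole table passed in edgeR (0%). None of the 8 had an unadjusted p under 0.05, against 9.06% of all genes, and DESeq2 called none of the 8 and 0.0796% of all. Estimates ran from -0.52 ± 0.37 for Cebpa to 0.28 ± 0.38 for Tfec, and the 95% intervals for Sfpi1 (-0.58 to 0.77) and Irf5 (-0.45 to 0.65) leave room for moderate changes either way. The difference between the antibody's effect with and without Lupron also gave no call (0% of all genes), and DESeq2 called none of the 8 and 1.25% of all. Only Irf8 had an unadjusted p under 0.05 (0.0383, against 6.77% of all genes), with -0.73 ± 0.31 and an adjusted p of 0.705: its estimate with the antibody was -1.07 on Lupron and -0.34 without it.

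Levels of different genes were compared as CPM per kilobase of exon. On that scale Cebpb was highest, at 16.2 over the 12 tumours, followed by Sfpi1 at 7.25, Maf at 5.89, Irf8 at 4.21, Irf5 at 3.7, Cebpa at 2.98, Mitf at 2.69 and Tfec at 0.34, with Csf1r at 11.0. The order depended on treatment. In Lupron tumours Cebpb (14.8 ± 3.05 CPM per kilobase, SD, n = 3) and Sfpi1 (12.8 ± 2.54) lay within each other's spread. In anti-CSF1 tumours Cebpb was at 18.9 ± 0.304 and Sfpi1 at 3.09 ± 0.939 CPM per kilobase, and Sfpi1 there was no higher than Maf (4.19 ± 1.02) or Irf8 (3.51 ± 0.351). Tfec stayed lowest in each group.

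Set against Csf1r in the same tumour, several factors were higher in tumours given the antibody. The ratio of Irf8 to Csf1r, both in CPM, had a median of 1.02 in tumours given the antibody (0.945 to 2.07) and 0.341 in the others (0.264 to 0.561). For Cebpb the median ratio was 1.13 with the antibody (0.946 to 2.59) and 0.215 without it (0.196 to 0.353). For Mitf it was 0.735 with the antibody (0.514 to 1.8) and 0.15 without it (0.111 to 0.41), and for Irf5 0.276 (0.209 to 0.378) with it and 0.161 (0.12 to 0.174) without it. In these 4 genes the ratios of the 2 sets of tumours did not overlap. Csf1r itself fell 5.22-fold, while the median log2 fold change over all genes was 0.02. A gene that fell less than Csf1r, or did not change, thus has a higher ratio with the antibody. The share of all genes whose ratios separate in this way was not counted. By mean log2 ratio Sfpi1 differed least, 0.52 higher with the antibody, with Tfec close to it at 0.56. The ratio of Sfpi1 to Csf1r had a median of 0.391 with the antibody (0.309 to 0.557) and 0.296 without it (0.186 to 0.344). The sets overlapped for Sfpi1, as they did for Maf, Tfec and Cebpa. Tumours given the antibody that lay above all the others numbered 4 for Sfpi1, 5 for Maf, 2 for Tfec and 0 for Cebpa. These ratios are a description and were not tested.

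**Figure D3:**
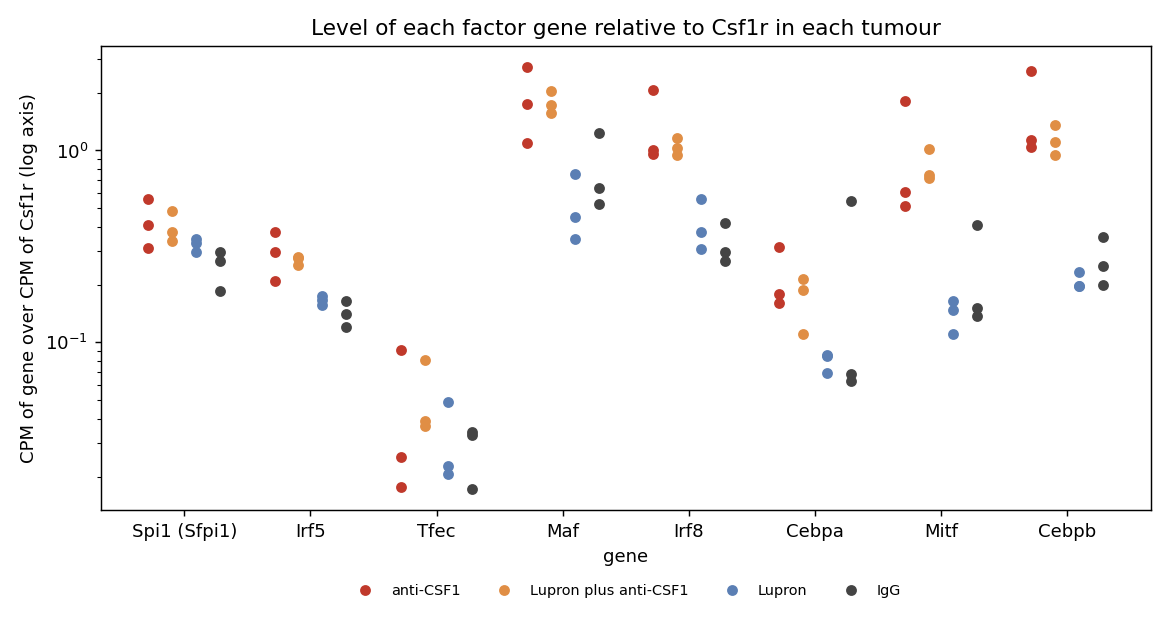
Ratio of each gene's CPM to that of Csf1r in the same tumour (log y axis), 1 point per tumour, coloured by treatment group. The 6 tumours given anti-CSF1 lie above the 6 others without overlap for Irf8, Irf5, Mitf and Cebpb and overlap for Sfpi1, Tfec, Maf and Cebpa. Csf1r itself fell with the antibody, which raises the ratio of any gene that fell less.

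Relatives of these factors were counted from lists in the comparison of the antibody averaged over Lupron. None of 8 ETS factors of blood cells, 2 other MiT/TFE genes and 3 other C/EBP genes passed, with median log2 fold changes of -0.06, -0.20 and 0.28. At an unadjusted p under 0.05 there were 2, 1 and 0 of them in that order, and DESeq2 called Spic (adjusted p = 0.0169). The ETS factors with the smallest p were Spic, a PU.1 relative of red pulp and iron-handling macrophages (-2.45 ± 0.75, adjusted p = 0.134), Fli1 (-0.53 ± 0.20, 0.193) and Ets1 of lymphocytes (0.60 ± 0.31, 0.322). Of other IRF genes, Irf4 of lymphocytes and some macrophages had -1.58 ± 0.68 (adjusted p = 0.242) and Irf3 had -0.22 ± 0.13 (0.375). The small MAF genes Mafk (-0.57 ± 0.26, adjusted p = 0.266) and Mafg (0.30 ± 0.19, adjusted p = 0.401) did not pass. Tfeb and Tfe3, which control lysosome genes, had -0.58 ± 0.25 (adjusted p = 0.251) and 0.18 ± 0.22 (0.662). Ddit3, Cebpd and Cebpg had 0.80 ± 0.38 (adjusted p = 0.282), 0.28 ± 0.22 (0.482) and 0.08 ± 0.15 (0.772).

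Of 26 other regulators of macrophages and monocytes 1 fell in edgeR, Nr1h3, the gene of the oxysterol receptor LXR alpha. Nr1h3 had 3.57, 3.03 and 2.7 CPM in anti-CSF1 tumours, 5.12, 4.21 and 2.31 CPM in Lupron plus anti-CSF1 tumours, 11.4, 13.3 and 12.3 CPM in Lupron tumours, and 5.02, 8.26 and 10.1 CPM in IgG tumours. Lupron tumours were highest, and IgG replicate 1 was just under the highest Lupron plus anti-CSF1 tumour. The log2 fold change was -1.5 ± 0.25 (adjusted p = 0.0155), and the call held in 8 of 12 fits that leave out a library, and was lost without anti-CSF1 replicate 2 or 3, Lupron plus anti-CSF1 replicate 2 or Lupron replicate 2 (highest adjusted p 0.0648). Ikzf1, the gene of Ikaros (-1.47 ± 0.35, adjusted p = 0.0611), and Runx3 (-1.31 ± 0.44, adjusted p = 0.158) did not pass in edgeR. DESeq2 called 3 of the list lower (Nr1h3, Ikzf1 and Runx3) and 1 higher, against 9.45% of all genes in either direction. At an unadjusted p under 0.05 there were 8 of the 26, against 19% of all genes. The median of the 26 was -0.06.

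Known target genes of the factors were counted in the same comparison. The lists were written from general knowledge, with earlier results of these data known. They share genes: Csf1r, Cd68, Fcgr1, Mrc1, Cd163 and the C1q genes are also macrophage markers, and Il12b and Csf3r are each on 2 target lists. Adipoq is also a fat cell marker, and Csf3r a neutrophil marker. Of 10 PU.1 targets 8 fell, with a median log2 fold change of -1.81. Csf2ra, a receptor subunit for GM-CSF, had -1.47 ± 0.14 (adjusted p = 0.00306), and Itgam, the gene of CD11b, had -2.27 ± 0.28 (0.00798). Of 7 tested MAF factor targets 5 fell, with a median of -2.31, among them the complement genes C1qb (-2.46 ± 0.32, adjusted p = 0.00798) and C1qa (-2.31 ± 0.33, 0.00845) and the mannose receptor gene Mrc1 (-1.92 ± 0.25, 0.00798). Csf2ra, Itgam, C1qa, C1qb and Mrc1 were called in all 12 fits that leave out a library.

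Of 8 IRF8 targets 3 fell, with a median of -1.09. Ciita, the switch gene of MHC class II, had -1.81 ± 0.27 (adjusted p = 0.00959) and was called in all 12 fits. Cybb, an NADPH oxidase subunit gene, had -2.03 ± 0.39 (0.026) and held in 3 of 12 fits, without anti-CSF1 replicate 1, IgG replicate 1 or IgG replicate 3. Ctss, the gene of cathepsin S, had -1.94 ± 0.42 (0.0419) and held in 2, without IgG replicate 1 or 3. None of 4 tested IRF5 targets passed in edgeR or DESeq2 (1 at an unadjusted p under 0.05): Il6 had 1.74 ± 0.69 (adjusted p = 0.215), Il12b -0.78 ± 0.49 (0.399) and Tnf -0.45 ± 0.50 (0.623). Of 7 tested MITF and TFEC targets 1 fell, Acp5, the osteoclast and macrophage acid phosphatase gene (-1.21 ± 0.19, adjusted p = 0.0118, called in all 12 fits), while Ctsk (-0.83 ± 0.33, 0.208) and Mcoln1 (0.24 ± 0.13, 0.333) did not pass.

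None of 8 tested C/EBP targets passed in edgeR or DESeq2 (1 at an unadjusted p under 0.05), with a median of -0.66. Il1b had -0.83 ± 0.59 (adjusted p = 0.441) and Csf3r, the receptor gene of G-CSF, -0.77 ± 0.59 (0.474). Adipoq, a fat cell gene, had 0.0 CPM in all 3 anti-CSF1 tumours, 23.2, 0.0 and 2.24 CPM in Lupron plus anti-CSF1 tumours, 1.56, 0.0 and 1.22 CPM in Lupron tumours, and 1.48, 19.1 and 140.0 CPM in IgG tumours, and did not pass (adjusted p = 0.239). Its highest level was in IgG replicate 3, as were the highest Cebpa and the highest fat marker sum. Adipoq is itself part of that sum, so its likeness to the sum is partly built in.

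**Figure D4:**
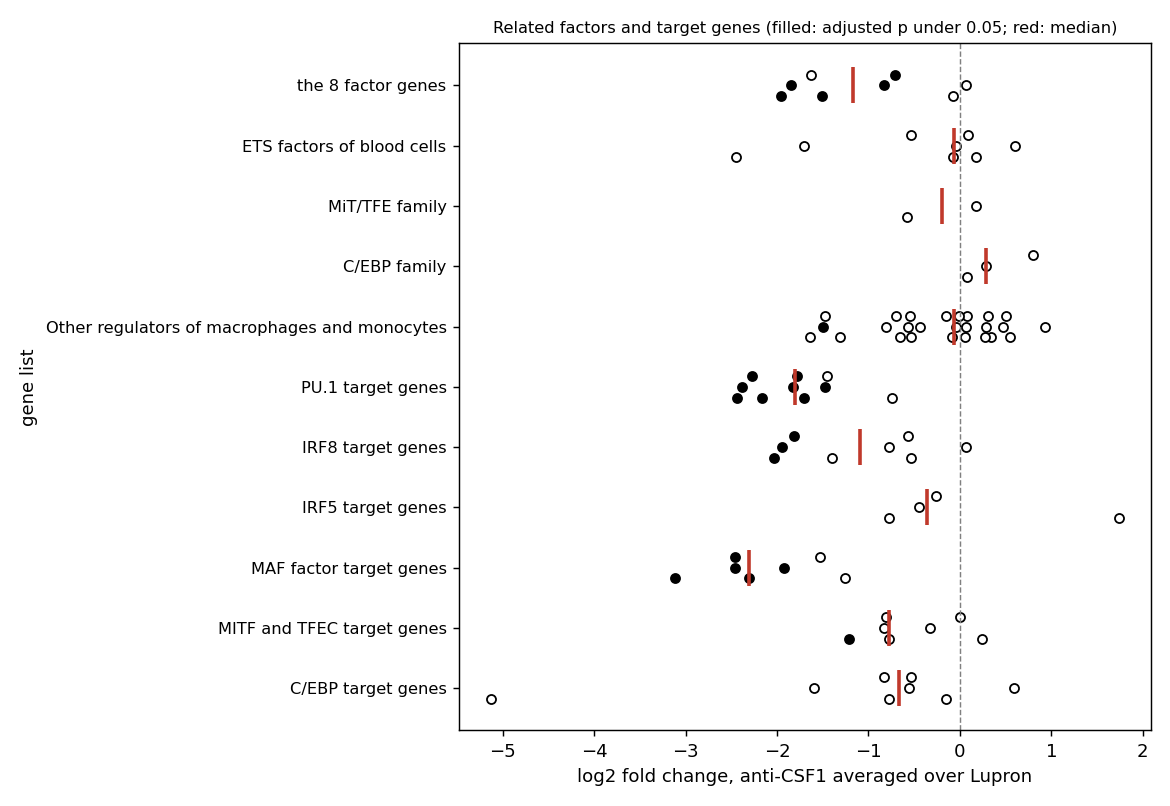
Log2 fold change with anti-CSF1, averaged over Lupron, of each tested gene in 4 lists of related factors or regulators and 6 lists of target genes (x axis, log2), below the 8 factor genes, with filled points at an adjusted p under 0.05 and red marks at the median of each list. Targets of PU.1 (median -1.81) and of MAF factors (median -2.31) lie furthest below 0.

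The 8 genes did not share a single pattern. Likeness was measured as the root mean square difference of centred log2(CPM + 0.5) over the 12 tumours, among 12805 genes with a mean of at least 1 CPM. This measure is not scaled by how much a gene varies, so 2 genes that vary little come out close whatever their pattern. The median difference from the 12805 genes was 0.48 for Mitf and 0.47 for Cebpb, against 0.92 for Irf5, 1.0 for Cebpa and 1.14 for Sfpi1. The closest pairs among the 8 were Mitf with Cebpb (0.31 log2 units) and Sfpi1 with Irf5 (0.32), and the farthest was Sfpi1 with Mitf (1.07). Outside the 8, Sfpi1 was nearest to Fyb (0.19), Pilra (0.23) and Lrrc25 (0.24), and Irf5 to Bin2 (0.17), Lrmp (0.2) and Ptpn6 (0.2). Irf8 was nearest to Pik3r6 (0.19), Cyth1 (0.19) and Akna (0.2). Tfec was nearest to Slc16a6 (0.23), Lrrc33 (0.26) and Rasa4 (0.27), and Maf to Fnbp1 (0.19), Fcgrt (0.22) and Synj1 (0.22). Cebpa had the most distant neighbours, Dock8 (0.32), Sash1 (0.33) and Slc43a2 (0.33). Mitf was nearest to Lrsam1, Tmem67 and Atxn10 (0.14 each), and Cebpb to Wdr18, Wdr1 and Ikbkap (0.12 each). Of the neighbours named, those of Mitf and Cebpb had antibody estimates of -0.23 to 0.14, while Fyb had -1.98 ± 0.28 (adjusted p = 0.00798) and Bin2 -1.5 ± 0.25 (0.0155).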

How the data were processed

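Raw counts per gene symbol, whole numbers with no normalization, were deposited by the authors for 12 libraries. Per the submitters' processing notes, bcl2fastq 2.20.0.422, cutadapt 1.8.1 and HTSeq 0.6.1 were used with build mm10. No source used here names the aligner, the annotation or the strand setting. Per the labels, libraries were made with a NuGen Ovation kit.

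The 15082 genes kept by edgeR's filterByExpr were scaled by TMM and fitted in R 4.3.3 with edgeR 4.0.16, 1 mean per group over all 12 libraries, robust quasi-likelihood F test, two-sided, with Benjamini-Hochberg adjustment over all tested genes and a call at an adjusted p under 0.05. CPM values use TMM-scaled library sizes. The common biological coefficient of variation was 0.471. The replicates are taken as separate tumours, and p-values measure the spread between these. The test was checked on simulated counts. Alternatives were RLE or upper-quartile scaling, the DESeq2 1.42.0 Wald test, no filter, a fit to the compared groups, at least 1 CPM in 3 libraries as the filter, a replicate block, and leaving out each library. Comparisons of the antibody with and without Lupron use the means of separate libraries, and the averaged comparisons draw on all 12. In the main fit all comparisons share the estimate of the spread over the 12 libraries, so their p-values are not independent.

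The 8 genes, the lists and the motifs were chosen with earlier results of these data known. Of 170 listed symbols 168 were matched, 3 by an older symbol. Named genes were the 8, Csf1r and Csf1, up to 3 genes per list with the smallest p in the averaged antibody comparison, and the 3 nearest in pattern. Exon lengths come from GENCODE M21 (GRCm38). Certain genes and lists that these rules would give are not reported here.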

Additional observations from a re-analysis of the deposited data

How the results depend on the processing

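In the averaged antibody comparison 282 genes and 5 of the 8 were called. DESeq2 called 1425 genes and the fit with a replicate block 151. Without a filter on low counts 2 of the 8 were called (Sfpi1 and Irf5), and with the block 3 (Sfpi1, Irf5 and Tfec). Against IgG, where 1 gene was called, RLE scaling, upper-quartile scaling and the stricter filter each gave 2, DESeq2 1841, and the compared groups alone and the block 0 each; DESeq2 called 5 of the 8. For Lupron plus anti-CSF1 against Lupron, with 0 genes called, RLE scaling gave 5, upper-quartile scaling 7, DESeq2 236, no filter 2, the stricter filter 5 and the compared groups alone 204, and DESeq2 and the compared groups alone each called 3 of the 8. DESeq2 gave 12 genes for Lupron and 188 for the interaction.

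Leaving out each library in turn gave 65 to 1577 genes and 0 to 6 of the 8 for the averaged antibody comparison, 0 to 2611 and 0 to 4 against IgG, 0 to 210 and 0 to 3 for the antibody on Lupron, 0 to 2 genes for Lupron and 0 to 5 for the interaction. Signs turned in some of these fits, all of estimates that had not passed. Ranges were -0.03 to 0.16 (averaged), -0.02 to 0.30 (against IgG) and -0.12 to 0.15 (on Lupron) for Cebpb and -0.66 to 0.09 (averaged) for Tnf. For Lupron they were -0.03 to 0.26 for Irf5, -0.03 to 0.16 for Irf8 and -0.11 to 0.34 for Sfpi1, and for the interaction -0.33 to 0.82 for Cebpa and -0.28 to 0.67 for Tfec. The cause of these shifts was not tested.

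No clear pairing by replicate number was seen: over 18 same-numbered pairs the correlation of deviations ran from -0.32 to 0.34, with 7 over 0.1. Of 12 libraries, 4 correlated best with their own number. These correlations cannot show that the samples were unpaired. Upper-quartile scaling called Cebpa in the averaged comparison (adjusted p = 0.0435), and moved the median of all genes by -0.069. Tfec, at 14 to 117 counts per library, is the gene most limited by depth.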
